A study of Mus musculus with 16 samples.

Results

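The knockdown of liver FGFR4 was examined here as an effect averaged over a chow diet and a high-fat diet (HFD), with attention to the genes that moved the same way on both. All 16 liver libraries of the series entered the comparison, 4 from each group: Chow and HFD, the controls, and their knockdown (KD) counterparts Chow/FGFR4 KD and HFD/FGFR4 KD. For each gene the average KD effect was the mean of 2 differences, Chow/FGFR4 KD minus Chow and HFD/FGFR4 KD minus HFD, which share no library. Of 11324 genes tested, 55 (0.486%) passed the threshold for this average, 23 higher (0.203%) and 32 lower (0.283%), and a gene that passed it is said here to have been called.

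The mice were male C57BL6/J, 6 weeks old when the experiment began, and received chow or HFD for 12 weeks. KD mice were injected under the skin every 2 weeks with an siRNA against *Fgfr4*, at 3 mg/kg, coupled to N-acetylgalactosamine, a sugar that hepatocytes take up. The controls were given saline in place of a control siRNA, and the effect of any siRNA cannot be told apart from the loss of *Fgfr4*. The p-values measure the spread between libraries within the groups. Mice were housed 4 to a cage and the cage of each mouse was not given, so a cage may coincide with a group. In that case an effect of cage cannot be told apart from that of the KD.

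FGFR4 is a receptor tyrosine kinase of the hepatocyte surface. With its co-receptor β-Klotho it binds FGF15, a hormone that the ileum releases when bile acids are absorbed, and its signal restrains the transcription of *Cyp7a1*, the gate of bile acid synthesis. The same pathway is known for effects on hepatic lipid and glucose metabolism. Much of the hepatocyte's use of fatty acids takes place in mitochondria and peroxisomes, where β-oxidation shortens acyl chains and feeds the citric acid cycle and the respiratory chain.

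Sequences upstream of 8 of the genes described below are shown first, because most of them encode proteins of mitochondria or of lipid storage, or a transcription factor that moved with the KD on both diets. They come from RefSeq (GRCm38.p6) and run 5′ to 3′ on the strand of the gene. In each sequence capitals mark only matches to the motif named in its brackets, searched on both strands, and matches to the other motifs are left in lower case. The motifs were the GC box GGGCGG, found in 35.66% of 32851 mouse promoters of the same length (250 bases before to 50 after the start site), the NRF1 core CGCATGCG, found in 1.87%, and the CCAAT box, found in 37.41%. The E-box CACGTG, shown in *Pdk2*, was found in 7.15%. The first sequences are windows of 30 bases around a match, and the last 3 are the 250 bases before the start site.
Fgfr4 (chr13:55152748-55152777, + strand, GC box): tccaggagGGGCGGagtccgaggtGGGCGG
Ndufa5 (chr6:24527670-24527699, - strand, GC box): cctctcctaggtGGGCGGgagctgccccta
Cisd1 (chr10:71344899-71344928, - strand, NRF1): tggaccagctgCGCATGCGcgactctaccg
Fitm2 (chr2:163472658-163472687, - strand, NRF1): tgcaggaagcgCGCATGCGcccagagggga
Unkl (chr17:25188375-25188404, + strand, NRF1): cgccggcgcggCGCATGCGcgctgcattgt
Pdk2 (chr11:95041372-95041621, - strand, E-box and CCAAT): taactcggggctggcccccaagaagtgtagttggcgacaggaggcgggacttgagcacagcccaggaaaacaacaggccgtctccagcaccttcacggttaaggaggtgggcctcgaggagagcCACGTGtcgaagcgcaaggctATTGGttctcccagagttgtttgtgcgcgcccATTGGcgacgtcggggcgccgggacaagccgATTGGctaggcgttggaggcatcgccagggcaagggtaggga
Cs (chr10:128337477-128337726, + strand, CCAAT): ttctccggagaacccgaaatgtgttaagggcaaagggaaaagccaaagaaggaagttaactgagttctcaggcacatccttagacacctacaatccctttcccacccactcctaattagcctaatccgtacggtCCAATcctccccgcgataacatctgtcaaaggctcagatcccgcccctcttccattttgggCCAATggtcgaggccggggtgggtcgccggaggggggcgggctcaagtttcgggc
Cebpb (chr2:167688665-167688914, + strand, GC box): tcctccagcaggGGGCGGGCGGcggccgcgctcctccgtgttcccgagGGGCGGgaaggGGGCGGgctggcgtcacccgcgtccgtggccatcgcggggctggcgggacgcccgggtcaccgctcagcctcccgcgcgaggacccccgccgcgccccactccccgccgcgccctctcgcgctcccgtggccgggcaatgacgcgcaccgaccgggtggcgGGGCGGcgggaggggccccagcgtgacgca

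Promoters were found for 10 of the 12 named genes that were lower with KD and for all 12 named genes that were higher. The NRF1 core stood in the promoters of *Cisd1*, 68 bases before the start site, and of *Fitm2*, 47 bases before it, and it stood as well in the promoter of *Unkl*, a gene that moved in the opposite direction. The GC box was present in a promoter of 8 of the 10 lower genes and of 11 of the 12 higher genes, so these letters did not separate the directions. These counts are of genes, some with several promoters, whereas the shares given above are of promoters. A match is a description of the window and says nothing of binding.

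The libraries held between 3445949 and 5976449 estimated counts. Levels are given in CPM, counts scaled to library size with TMM factors, and changes on the log2 scale from limma-voom. A call required p under 0.05 together with a p adjusted by the Benjamini-Hochberg method of under 0.25. This threshold follows the study's methods. An unadjusted p under 0.05 was reached by 1006 genes (8.88%), 512 of them higher (4.52%), and an adjusted p under 0.05 by 2, *Fgfr4* and *Ndufa5* (0.0177%). Hepatocyte markers summed to between 75930 and 100300 CPM in every library, and all 10 were detected. A pair of libraries stood apart from their groups. HFD/FGFR4 KD 1 lay at -6.33 on the first principal component of the 500 most variable genes (46.1% of variance), where the other 3 HFD/FGFR4 KD libraries lay between 16.7 and 20.6 and the 4 Chow libraries between -21.4 and -4.84. Chow/FGFR4 KD 4 had 2378 CPM of the acute-phase gene *Saa2*, against 8.69 to 118.5 CPM in the other 3 Chow/FGFR4 KD libraries. Without both, 15 genes were called, of which 11 were among the 55. The HFD controls were also spread on that component, with HFD 1 and 3 at 25.7 and 30.4 and HFD 2 and 4 at 5.97 and 9.64.

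The target itself checked the labels. *Fgfr4* (ENSMUSG00000005320) is a protein-coding gene at chr13:55152640-55168759 on the + strand of GRCm38. In Chow 1 to 4 its level was 27.9, 25.8, 36.3 and 28.9 CPM, and in Chow/FGFR4 KD 1 to 4 it was 5.95, 6.17, 4.24 and 2.76 CPM. In HFD 1 to 4 it was 30.1, 28.6, 21.8 and 22.4 CPM, and in HFD/FGFR4 KD 1 to 4 it was 2.82, 2.43, 5.31 and 4.40 CPM. Every KD library lay below every control library on either diet; over all genes the 2 groups did not overlap for 2.52% on chow and for 6.49% on HFD. The average change was -2.70 (95% interval -3.09 to -2.30; limma-voom, adjusted p = 9.81e-07), a loss of 84.6%. The change was -2.62 on chow and -2.78 on HFD, and the difference between them was -0.16 (interval -0.95 to 0.64; limma-voom, adjusted p = 0.967).

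The other receptors of the family did not pass the threshold. *Fgfr2*, which binds other FGFs, changed by 0.34 on chow and 0.42 on HFD (average 0.38, interval 0.05 to 0.70; limma-voom, adjusted p = 0.492). The average change of *Fgfr1* was 0.03, with an interval from -0.47 to 0.53. For *Fgfr3* it was 0.02 (interval -0.37 to 0.41), and for the decoy receptor *Fgfrl1* it was -0.18 (interval -0.65 to 0.30). Of the 7 receptors and klotho co-receptors on the list, 6 passed the filter on low counts, and *Fgfr4* was the only member called.

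*Ndufa5*, which encodes an accessory subunit of respiratory complex I, was the other gene with an adjusted p under 0.05. It lies at chr6:24518666-24528013 on the - strand. Chow 1 to 4 had 32.6, 38.1, 35.7 and 36.7 CPM, and Chow/FGFR4 KD 1 to 4 had 28.4, 29.7, 19.98 and 20.7 CPM. HFD 1 to 4 had 32.4, 36.0, 37.1 and 33.7 CPM, and HFD/FGFR4 KD 1 to 4 had 15.6, 13.9, 15.1 and 12.2 CPM. All 8 KD libraries were below all 8 controls, and the libraries of HFD/FGFR4 KD were below those of Chow/FGFR4 KD.

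On average *Ndufa5* fell by 0.90 on the log2 scale (interval -1.09 to -0.71; limma-voom, adjusted p = 9.29e-05), or by 46.5%. The decrease was 30.5% on chow and 58.8% on HFD. By itself the decrease on chow was not called (limma-voom, unadjusted p = 0.000522, adjusted p = 0.976), and that on HFD was (adjusted p = 9.06e-05). The difference between the diets, -0.75 on the log2 scale, had an unadjusted p of 0.000606 and an adjusted p of 0.491 in limma-voom, so it was not called. An exact permutation test, two-sided and within diets, gave p = 0.000408 for *Fgfr4* and for *Ndufa5*, the smallest that the 4900 assignments allow. *Ndufa5* was named with earlier results of these data known, and this p is not corrected over the 11324 genes tested. For *Ndufa5* it therefore only describes how its libraries separate. Genes without overlap on both diets in the same direction numbered 16 (0.141%). Only 1.0% of the 31-base words of *Ndufa5* transcripts occur in transcripts of other genes, and none of those of *Fgfr4* do.

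The other subunits of complex I changed by less than *Ndufa5*. Of 37 tested, it was the only one called, and the other 36 had average changes from -0.27 for *Ndufa3* to 0.05. On average 33 of the 37 were lower, 21 were lower on both diets, where 25.5% of all genes were, and 5 were lower at an unadjusted p under 0.05 in limma-voom (4.36% of all genes). *Ndufa1*, *Ndufa2* and *Ndufa6*, accessory subunits of the same enzyme, changed by -0.15, -0.06 and -0.01 on average. The median over the list was -0.04 on chow and -0.08 on HFD, beside a median of 0.004 over all genes on each diet. In complexes II to V, 24 of 38 subunits were lower on both diets, none was called by limma-voom or edgeR and 1 was by DESeq2, 3 were lower at an unadjusted p under 0.05 in limma-voom, and the medians were -0.05 and -0.06.

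**Figure D1:**
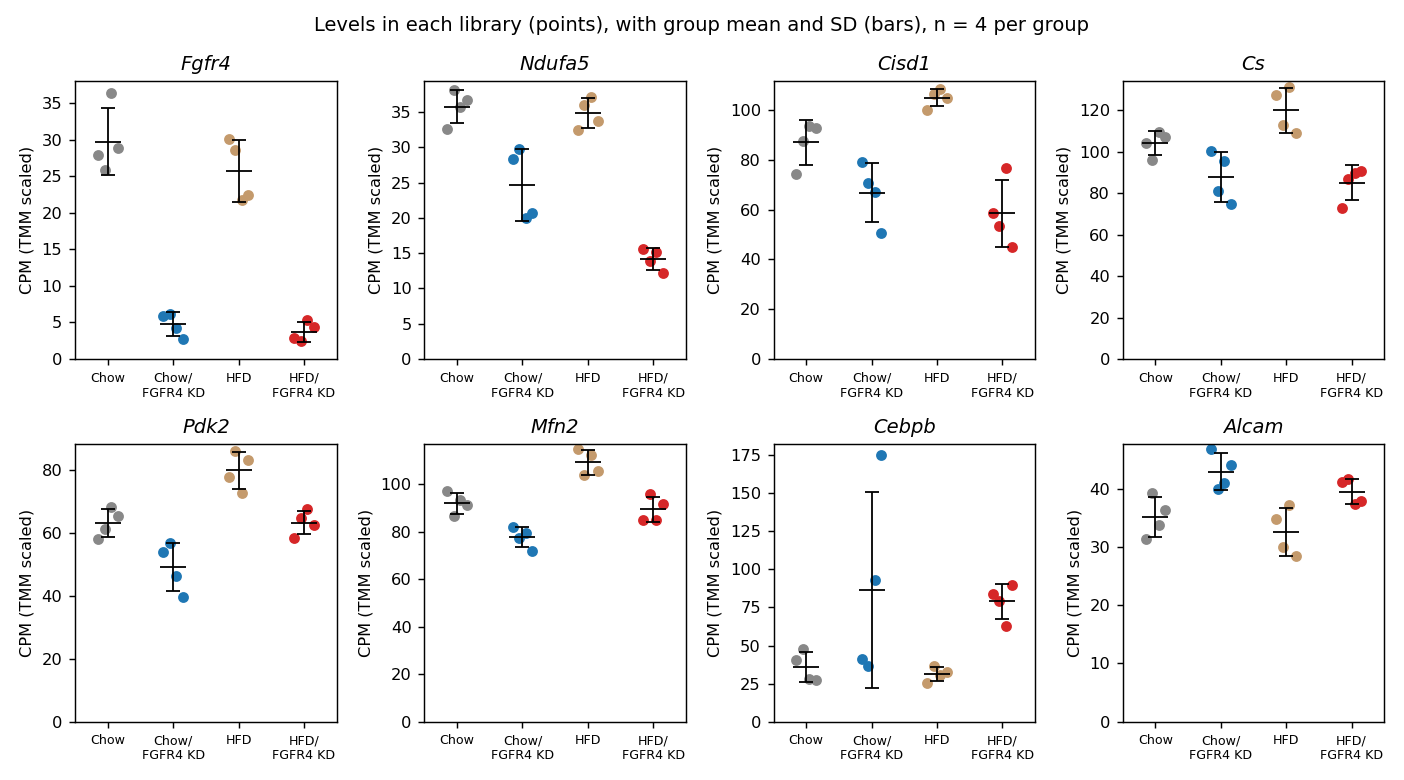
CPM (y axis) of 8 genes in each of the 16 libraries (points), with the mean and SD of each group of 4 (bars). For *Fgfr4* and *Ndufa5* all KD libraries lie below all controls, whereas *Cebpb* spreads from 36.4 to 174.8 CPM in Chow/FGFR4 KD.

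Several other mitochondrial and metabolic genes were lower with KD on both diets. They are described here by the per-diet changes that were used to choose them, which therefore are not tests. *Cisd1* encodes mitoNEET, an iron-sulphur protein of the outer mitochondrial membrane. Its level was 74.2, 87.4, 93.7 and 92.6 CPM in Chow 1 to 4 and 78.9, 70.6, 67.2 and 50.5 CPM in Chow/FGFR4 KD 1 to 4. In HFD 1 to 4 it was 100.1, 106.3, 108.4 and 104.8 CPM, and in HFD/FGFR4 KD 1 to 4 it was 58.8, 53.6, 76.7 and 45.1 CPM. The groups did not overlap on HFD, while on chow Chow/FGFR4 KD 1 lay above Chow 1. *Cisd1* fell by 0.62 on average (interval -0.83 to -0.40; limma-voom, adjusted p = 0.0526), by 0.38 on chow and by 0.85 on HFD. It was called in all 27 alternative analyses.

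*Cs* encodes citrate synthase, the first enzyme of the citric acid cycle, and *Pdk2* a kinase that switches off pyruvate dehydrogenase. *Cs* was at 104.2, 96.0, 109.7 and 107.2 CPM in Chow 1 to 4 and at 100.3, 80.9, 95.7 and 74.7 CPM in Chow/FGFR4 KD 1 to 4. On HFD the controls had 127.5, 112.8, 131.2 and 109.0 CPM and the KD libraries 72.8, 86.8, 90.0 and 90.7 CPM. On chow the groups overlapped through Chow/FGFR4 KD 1, and on HFD they did not overlap. The average change of *Cs* was -0.38 (interval -0.53 to -0.22; limma-voom, adjusted p = 0.0978), with -0.25 on chow and -0.50 on HFD.

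*Pdk2* was at 58.2 to 68.4 CPM in Chow and at 39.7 to 56.9 CPM in Chow/FGFR4 KD. It was at 72.7 to 86.2 CPM in HFD and at 58.5 to 67.6 CPM in HFD/FGFR4 KD. The groups did not overlap on either diet, and the changes were alike in size, -0.36 and -0.33, with a difference of 0.03 between diets. *Mfn2* encodes a GTPase that fuses outer mitochondrial membranes, and it showed the same order. It ran from 86.4 to 97.0 CPM in Chow, 72.0 to 82.1 CPM in Chow/FGFR4 KD, 103.6 to 114.8 CPM in HFD and 84.8 to 95.8 CPM in HFD/FGFR4 KD. The average changes were -0.35 for *Pdk2* (limma-voom, adjusted p = 0.107) and -0.27 for *Mfn2* (adjusted p = 0.0978).

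Storage, lysosomal and other genes made up the remaining named decreases. *Fitm2*, which the endoplasmic reticulum needs to form lipid droplets, changed by -0.37 on chow and -0.62 on HFD. *Fmo1*, a flavin-containing monooxygenase that oxidises drugs, changed by -0.26 and -0.47, and *Gna12*, a G protein α subunit, by -0.27 and -0.47, with no overlap on either diet. *Atp6v1f*, a subunit of the proton pump of lysosomes, changed by -0.36 and -0.41. The changes of *Adi1*, an enzyme of methionine salvage, were -0.24 and -0.28, and those of *Plbd1*, a lysosomal protein, were -0.36 and -0.25. *Adi1* and *Fmo1* were each pulled up in Chow by 1 library, Chow 3, at 134.5 and 131.8 CPM against at most 112.6 and 115.9 CPM in the other 3.

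Among the named decreases in this comparison, those of *Cs*, *Mfn2*, *Fitm2* and *Fmo1* were lost when Chow 3 was left out, where their adjusted p in limma-voom ran from 0.275 to 0.281 and their average changes were -0.36, -0.26, -0.46 and -0.34. *Gna12* was lost without Chow 3 (-0.33) or Chow 4 (-0.35), and *Pdk2* without Chow 3 (-0.33), Chow 4 (-0.34) or Chow/FGFR4 KD 3 (-0.33). All 6 were lost without both libraries that stood apart (adjusted p in limma-voom from 0.264 to 0.286), where 4 of the 24 named genes stayed called, *Fgfr4*, *Ndufa5*, *Cisd1* and *Cebpb*, and with scaling by library totals (0.386 to 0.638).

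**Figure D2:**
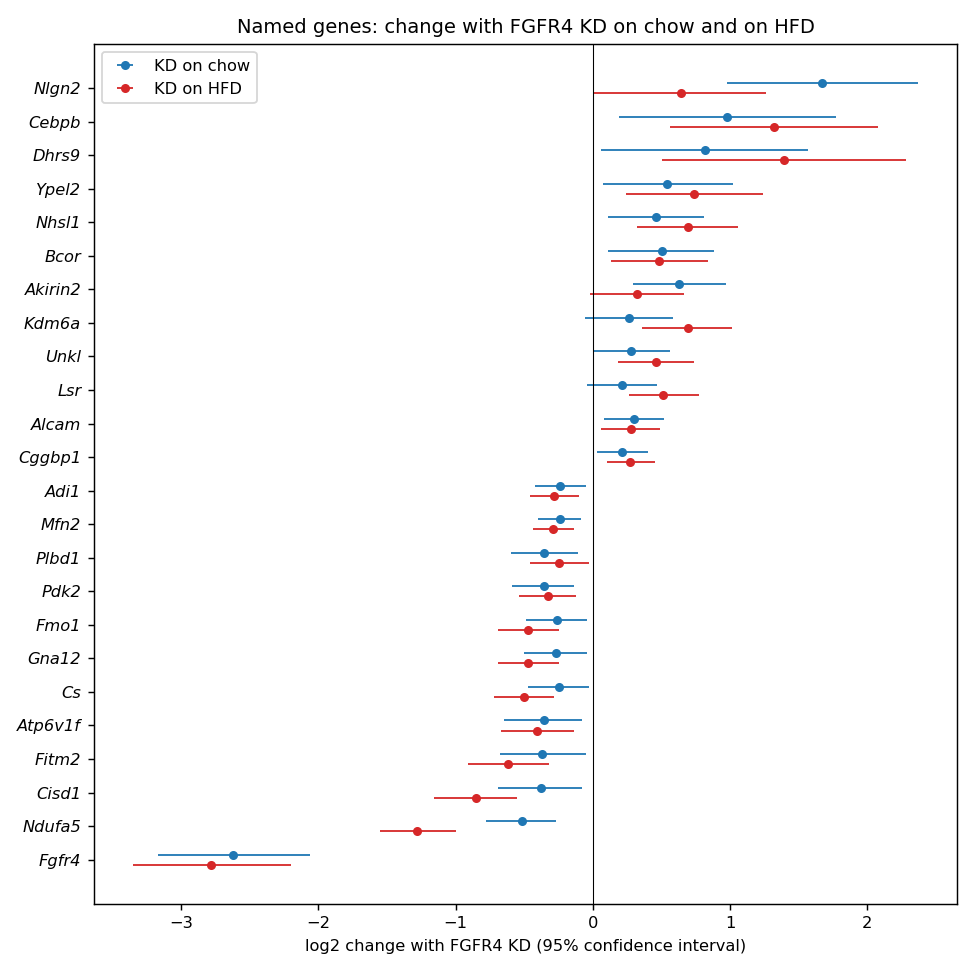
Log2 change with FGFR4 KD (x axis) on chow (blue) and on HFD (red) for the 24 named genes, each with its 95% confidence interval from limma-voom. The 12 lower genes lie left of 0 on both diets and the 12 higher genes right of it, a side that the choice of genes fixed. The separation of the diets in *Ndufa5* (-0.52 and -1.28) can be compared with their closeness in *Pdk2* (-0.36 and -0.33).

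Genes of fatty acid oxidation were lower with KD on both diets nearly throughout, by small amounts. The list was chosen with earlier results of these data known, so the counts that follow describe it and are not tests. Of 25 enzymes and carriers tested, 24 had a lower mean on chow and on HFD, where 25.5% of all genes did. The exception was *Acads*, at 0.01 on chow. In the average effect 17 of the 25 were lower at an unadjusted p under 0.05 in limma-voom (4.36% of all genes), and none was higher. In limma-voom 3 were called, beside 0.283% of all genes called lower. By edgeR 2 were called, of 46 calls in all. By DESeq2 11 were called, of 215 in all, where 8125 of the 11324 genes had no adjusted p. The median change was -0.13 on chow and -0.23 on HFD. Of the 25, 19 changed by more on HFD, a share that was not computed over all genes. At an unadjusted p under 0.05 in limma-voom, 3 were lower on chow and 13 on HFD. Of all genes 4.58% on chow and 11.0% on HFD reached that p in either direction.

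The called members act at several steps. *Hadhb* is the β subunit of the mitochondrial trifunctional protein, which carries out the last steps of β-oxidation of long chains. Its level was 169.9, 194.1, 184.1 and 166.2 CPM in Chow 1 to 4 and 178.7, 161.6, 146.6 and 136.2 CPM in Chow/FGFR4 KD 1 to 4. In HFD 1 to 4 it was 221.2, 219.1, 225.5 and 210.0 CPM, and in HFD/FGFR4 KD 1 to 4 it was 136.7, 171.3, 151.7 and 139.2 CPM. Thus the HFD groups were apart, and the chow groups overlapped through Chow/FGFR4 KD 1. *Hadhb* fell by 0.38 on average (interval -0.51 to -0.24; limma-voom, adjusted p = 0.0756), and 23.7% of its transcript words occur elsewhere, mainly in *Gm13910*.

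*Hsd17b4*, the peroxisomal bifunctional enzyme, changed by -0.16 on chow and -0.35 on HFD (average -0.26; limma-voom, adjusted p = 0.121). *Decr2*, the peroxisomal reductase for unsaturated acyl chains, changed by -0.20 and -0.48 (average -0.34; adjusted p = 0.249). For both, the groups were apart on HFD and overlapped on chow. The entry steps were not called. *Cpt1a*, the carnitine transferase at which long chains enter mitochondria, had changes of -0.25 and -0.29, its partner *Cpt2* -0.15 and -0.11, the carnitine carrier *Slc25a20* -0.19 and -0.21, and the dehydrogenase *Acadl* -0.06 and -0.20.

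The count of 24 depended on 1 library more than on the others: without Chow/FGFR4 KD 4 it was 18 and the median on chow was -0.06. Over all the alternatives it lay between 18 and 25, and in none was a member higher on both diets. Scaling by library totals moved the medians of all genes to 0.05 on chow and -0.08 on HFD, and with it 23 members were lower on both diets.

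**Figure D3:**
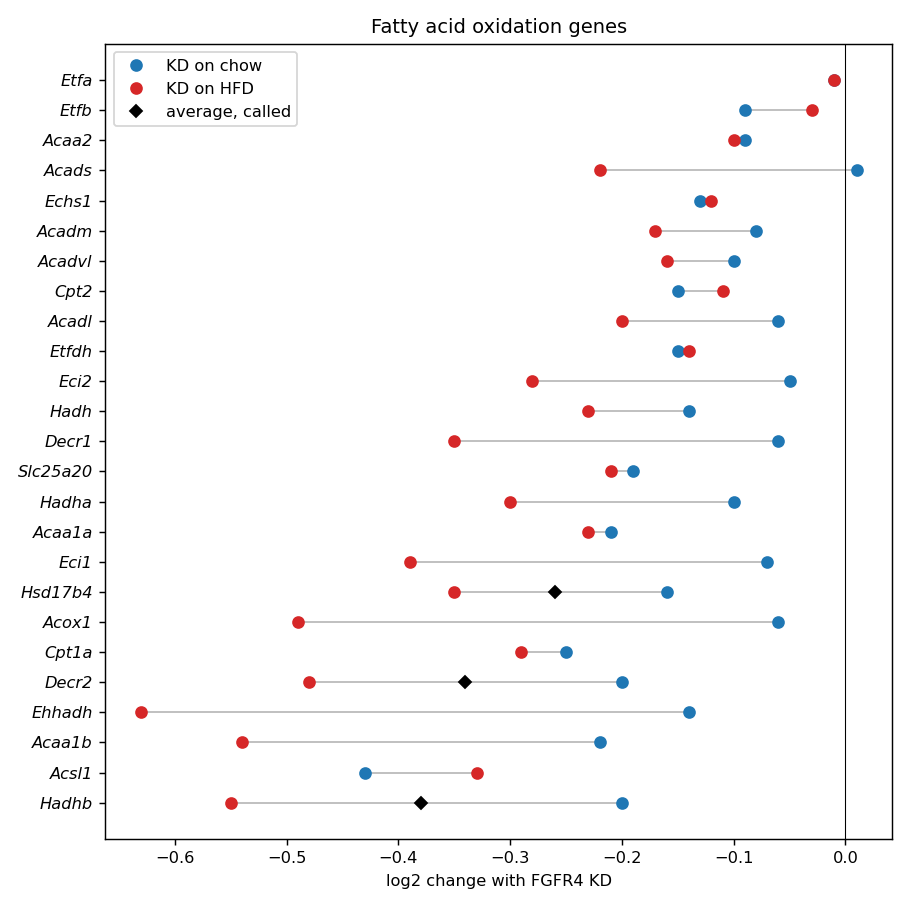
Log2 change with FGFR4 KD (x axis) of the 25 fatty acid oxidation genes on chow (blue) and HFD (red), joined by a line, with a diamond at the average of the 3 genes called. The points lie left of 0 except *Acads* on chow (0.01), and most of the red points lie further left than the blue.

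Genes that answer to PPARα, the nuclear receptor that drives fatty acid use in fasting, included 1 call among 15. This was *Vnn1*, a pantetheinase, which fell by 0.98 on average (limma-voom, adjusted p = 0.241), with -0.29 on chow and -1.67 on HFD. Its libraries were apart on HFD, at 91.9 to 138.0 CPM without KD and 24.3 to 63.1 CPM with it, and overlapped on chow. Of the 15 genes 10 were lower on both diets and none was higher on both, where 25.5% and 27.1% of all genes were. *Ppara* itself changed by -0.30 and -0.26 (adjusted p = 0.443), *Cyp4a10* by -0.45 and -0.59, *Cyp4a14* by -0.42 and -0.98, and *Cyp4a31* by 0.17 and -0.69. These cytochromes ω-oxidise fatty acids, and none of them passed the threshold. In the list for lipid droplets and triglyceride turnover, 9 of 14 genes were lower on both diets, beside the same 25.5%, and *Fitm2* was the only call.

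Named genes with higher means under KD on both diets were more varied. *Cebpb*, a transcription factor of the acute-phase and fasting programmes of hepatocytes, lies at chr2:167688915-167690418. It was at 40.8, 47.5, 28.2 and 27.7 CPM in Chow 1 to 4 and at 41.4, 36.4, 93.3 and 174.8 CPM in Chow/FGFR4 KD 1 to 4. In HFD 1 to 4 it was at 25.7, 36.6, 30.8 and 32.9 CPM, and in HFD/FGFR4 KD 1 to 4 at 84.1, 79.0, 62.9 and 89.6 CPM. On HFD all KD libraries were above all controls, whereas on chow Chow/FGFR4 KD 3 and 4 were high and the other 2 lay within the controls.

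*Cebpb* rose by 1.15 on average (interval 0.60 to 1.70; limma-voom, adjusted p = 0.181), 0.98 on chow and 1.32 on HFD. Its call was lost in 8 of the 16 analyses without 1 library (average changes from 1.08 to 1.16, adjusted p in limma-voom from 0.254 to 0.420), namely without Chow 3 or 4, Chow/FGFR4 KD 3, HFD 1, 3 or 4, or HFD/FGFR4 KD 1 or 4. Without both libraries that stood apart, HFD/FGFR4 KD 1 and Chow/FGFR4 KD 4, it was called at 0.91 (adjusted p = 0.205).

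Other named genes were higher by smaller amounts or at low levels. *Alcam*, an adhesion molecule of the immunoglobulin family, was at 31.4 to 39.2 CPM in Chow and 40.0 to 46.8 CPM in Chow/FGFR4 KD. It was at 28.5 to 37.3 CPM in HFD and 37.4 to 41.6 CPM in HFD/FGFR4 KD, so that neither pair of groups overlapped. *Nlgn2*, an adhesion protein best known from inhibitory synapses, was low, at 0.406 to 0.783 CPM in Chow and 1.59 to 3.03 CPM in Chow/FGFR4 KD. Its HFD levels were 1.21 to 1.47 CPM without KD and 1.30 to 2.66 CPM with it, and these overlapped. The counts behind *Nlgn2* ran from 2 to 12 in a library, and its change was larger on chow, 1.67 against 0.64 (average 1.15; limma-voom, adjusted p = 0.0978). Its call was lost without Chow 3 (1.07, adjusted p = 0.275).

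*Lsr*, a lipoprotein receptor that also seals junctions where 3 cells meet, changed by 0.21 on chow and 0.51 on HFD. *Bcor*, a transcriptional corepressor, and *Kdm6a*, a histone H3K27 demethylase, changed by 0.50 and 0.48, and by 0.26 and 0.69. *Cggbp1*, a DNA-binding protein, changed by 0.21 and 0.27 with no overlap on either diet. The retinol and steroid dehydrogenase *Dhrs9* changed by 0.82 and 1.39 on counts from 5 to 41.7 per library. *Akirin2*, a nuclear protein, changed by 0.63 and 0.32, and *Ypel2*, *Nhsl1* and *Unkl* by 0.54 and 0.74, 0.46 and 0.69, and 0.28 and 0.46.

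These calls depended on the libraries: leaving out 1 library ended the call of between 2 (Chow 2 or Chow/FGFR4 KD 2) and 21 (Chow 3) of the 24 named genes. *Nhsl1* was lost without Chow 3 (0.56) or Chow 4 (0.55). Each of *Lsr*, *Kdm6a*, *Akirin2*, *Alcam*, *Cggbp1*, *Dhrs9*, *Bcor*, *Unkl* and *Ypel2*, and of the lower genes *Atp6v1f*, *Adi1* and *Plbd1*, kept its call in at most 7 of the 16 analyses without 1 library, while its average change kept its sign in all of them. Between 36.3% (*Lsr*) and 18.4% (*Atp6v1f*) of the transcript words of *Lsr*, *Unkl*, *Cebpb* and *Atp6v1f* occur in other genes.

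Across all genes the diets were compared without reference to the average. At an unadjusted p under 0.05 in limma-voom on each diet, 43 genes moved the same way (0.380% of those tested), 23 up (0.203%) and 20 down (0.177%), and 22 moved in opposite ways (0.194%). Genes whose 4 KD libraries lay entirely above or below the 4 controls on both diets numbered 16 in the same direction (0.141%), 4 higher (0.0353%) and 12 lower (0.106%), and 3 in opposite directions (0.0265%). The 16 included *Fgfr4*, *Ndufa5*, *Pdk2*, *Mfn2*, *Gna12*, *Fmo1*, *Atp6v1f*, *Alcam* and *Cggbp1*. The changes on the diets had a Pearson r of 0.05 over the 11324 genes, which are not independent and share each library's composition.

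**Figure D4:**
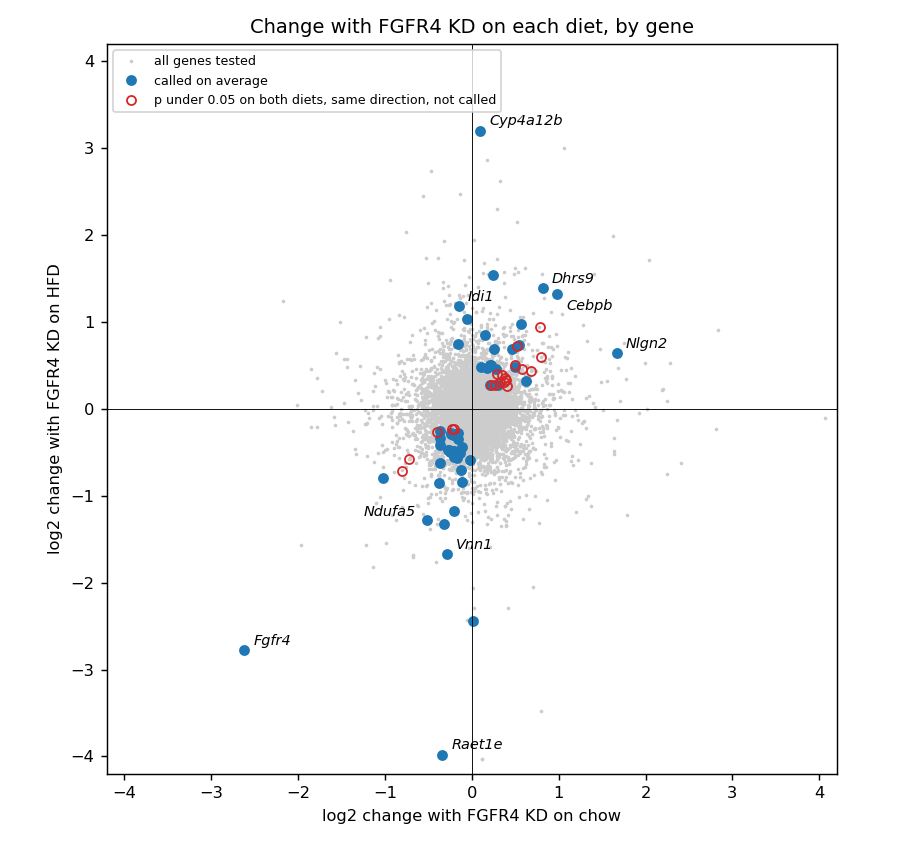
Log2 change with FGFR4 KD on chow (x axis) against that on HFD (y axis) for the genes tested (grey), the genes called on average (blue) and genes with p under 0.05 on both diets in the same direction that were not called (red rings). Of the genes called, 47 changed by more on HFD (y axis), and *Nlgn2* (1.67 on chow and 0.64 on HFD) is among those that did not. *Gm5641*, 1 of the 55, lies outside the axis limit of 4.2 and is not drawn.

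Many of the calls were carried by the HFD. Of the 55, 51 had the same sign on both diets, a count that choosing genes by their average favours. Over all genes 52.5% had the same sign. Of the 55, 23 had an unadjusted p under 0.05 on each diet in limma-voom. For 30 this held on HFD only and for 2 on chow only. The change was larger on HFD for 47, a share that was not computed over all genes. The difference between the diets had an unadjusted p under 0.05 in limma-voom for 24 of the 55, beside 6.76% of all genes. It was called for 2 of the 55. On chow by itself 1 gene was called (0.00883%), *Fgfr4*, and 519 had an unadjusted p under 0.05 (4.58%). On HFD 356 genes were called (3.14%), and 1244 had an unadjusted p under 0.05 (11.0%).

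Genes called on HFD were followed on chow, whose libraries played no part in the KD contrast on HFD beyond the shared estimate of spread. Of the 186 called lower on HFD, 128 were lower on chow too (68.8%), where 49.1% of all genes were. Of the 170 called higher on HFD, 84 were higher on chow (49.4%), where 50.9% of all genes were. The median change on chow was -0.06 for the former and -0.01 for the latter.

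In the list for cholesterol synthesis the average calls did not stand for a shared change. All 4 called members, *Tm7sf2*, *Nsdhl*, *Cyp51* and *Idi1*, had averages above 0, at 0.30, 0.50, 0.49 and 0.52. They catalyse steps between mevalonate and cholesterol. On chow their changes were -0.16, 0.15, -0.05 and -0.15, and on HFD they were 0.75, 0.85, 1.03 and 1.18. Over the 20 genes the median was -0.09 on chow and 0.78 on HFD, and 2 were higher on both diets, where 27.1% of all genes were. For *Tm7sf2* and *Idi1* the difference between the diets was itself called, at 0.91 (limma-voom, adjusted p = 0.00254) and 1.33 (adjusted p = 0.139). Among members that were not called, *Acat2* changed by -0.10 and 0.19, *Hmgcs1* by -0.03 and 0.88, and *Mvk* by -0.57 and 0.36.

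The 14 male-biased liver genes had the same medians, -0.09 and 0.78, and their only call, *Cyp4a12b*, changed by 0.10 on chow and 3.20 on HFD.

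*Cyp7a1*, the rate-limiting enzyme of classical bile acid synthesis, also went apart by diet. Its change was -0.56 on chow and 2.45 on HFD, with a difference of 3.01 (limma-voom, adjusted p = 0.0764), and its average of 0.94 was not called (adjusted p = 0.262). *Cyp8b1*, *Cyp27a1* and *Cyp7b1*, which shape the bile acid pool, changed by -0.58 and 0.07, -0.12 and 0.32, and -0.20 and 0.71. Of 15 synthesis enzymes 14 were lower on chow and 4 on HFD, and 4 were lower on both, where 25.5% of all genes were. Among 13 hepatic transporters of bile acids and sterols, 8 were lower on both diets, beside the same 25.5%. Another 3 were higher on both, where 27.1% of all genes were. On HFD the changes of the transporters ran from -1.18 to 1.39. *Abcg8*, a subunit of the canalicular cholesterol exporter, was called lower, with -0.21 on chow and -1.18 on HFD (average -0.70; limma-voom, adjusted p = 0.241).

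Chaperones of the endoplasmic reticulum and acute-phase genes had higher means on both diets in most members, with no call in limma-voom. Of 18 chaperones and regulators of the unfolded protein response, 13 were higher on both, where 27.1% of all genes were, none was called by limma-voom or edgeR and 1 by DESeq2, and 2 were higher at an unadjusted p under 0.05 in each (4.52% of all genes in limma-voom). Another stress list, of NRF2 targets and metallothioneins, had 2 of 11 members higher on both diets and medians of 0.11 and -0.23. The chaperones *Hspa5*, *Hsp90b1*, *Pdia3* and *Pdia4* changed by 0.16, 0.09, 0.06 and 0.10 on chow and by 0.28, 0.19, 0.11 and 0.14 on HFD. Without Chow/FGFR4 KD 4 the count fell from 13 to 3, and without both libraries that stood apart it was 3, with 5 lower on both.

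Of 15 acute-phase genes 13 were higher on both diets, beside the same 27.1% of all genes, none was called by limma-voom or edgeR and 5 were by DESeq2, and 4 were higher at an unadjusted p under 0.05 in limma-voom, beside 4.52%. The serum amyloid genes *Saa1*, *Saa2* and *Saa3* changed by 2, 2.19 and 2.20 on chow and by 0.53, 0.22 and 0.23 on HFD, and *Saa4* by 0.45 and 0.33. On chow the high library was Chow/FGFR4 KD 4, which also held the highest *Cebpb*. Without it 9 acute-phase genes were higher on both diets and 2 lower.

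**Figure D5:**
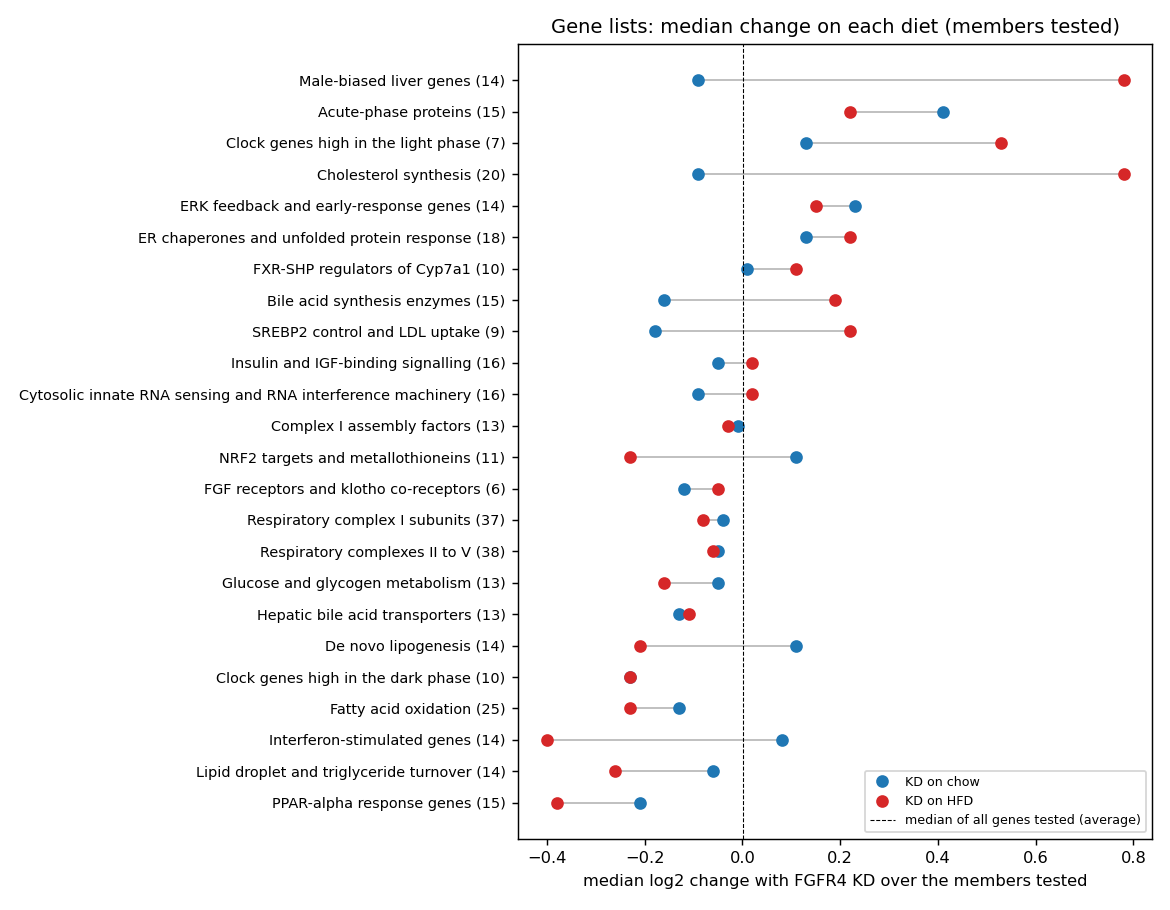
Median log2 change with FGFR4 KD (x axis) over the tested members of 24 gene lists, with the number of members in brackets, on chow (blue) and HFD (red). Both medians lie below 0 in 10 lists, among them fatty acid oxidation (-0.13 and -0.23), and above 0 in 5, while cholesterol synthesis lies on opposite sides (-0.09 and 0.78).

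Markers of other liver cells were summed in each library, and their part in the results was not tested. KD and control sums did not overlap for Kupffer cells on chow and for adipocytes on HFD. In every other case they overlapped, also for endothelial, cholangiocyte, erythroid, and T, B and neutrophil markers. The 12 markers of Kupffer cells and macrophages summed to 94.95 to 97.9 CPM in Chow and 113.8 to 154.7 CPM in Chow/FGFR4 KD, without overlap. On HFD they summed to 160.1 to 284 CPM without KD and 138.1 to 238.1 CPM with it. The 7 adipocyte markers, of which *Lep* was at 0 in every library, summed to 31.7 to 43.3 CPM in HFD and 11.6 to 27 CPM in HFD/FGFR4 KD, and to at most 17.4 CPM on chow. Stellate cell and matrix markers, 9 of them tested, were all lower on average and 5 were lower on both diets (25.5% of all genes). Their sum was 181.7 to 331.9 CPM in HFD and 127.2 to 213.6 CPM in HFD/FGFR4 KD. On chow it was 112.6 to 153.6 CPM and 91.5 to 143.9 CPM. Of 8 sinusoidal endothelial markers 6 were lower on both diets (25.5% of all genes). For the average 2 were lower at an unadjusted p under 0.05 in limma-voom (4.36% of all genes), and none was called by limma-voom, edgeR or DESeq2. *Ttr*, a hepatocyte marker, was called lower (-0.14 and -0.51; average -0.33, limma-voom, adjusted p = 0.241), and of the 10 hepatocyte markers it was the only call. On average 8 of the 10 were higher and 2 lower. Their median change was -0.04 on chow and 0.21 on HFD. In bulk liver, fewer cells of a type and less RNA per cell cannot be told apart.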

How the data were processed

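Per the labels and the study's methods, libraries were made from liver RNA of 16 mice. The labels name a KAPA mRNA kit and the methods another assay, and this was not settled. The authors trimmed reads with fastp, pseudoaligned them with kallisto (versions not given in the sources used here; the labels name GRCm38) and summed transcripts to genes with tximport. The deposited values are estimated counts for 52143 genes, of which 7.85% to 11.1% in a library were not whole. The deposited table held no other measurement.

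Genes with under 1 CPM in more than 4 libraries were left out, and counts were scaled with TMM (edgeR 4.0.16) and fitted with limma-voom (limma 3.58.1, R 4.3.3) with a mean for each of the 4 groups. Calls needed p under 0.05 and adjusted p under 0.25. Symbols were matched for 98.3% of identifiers, and positions are from GENCODE on GRCm38. The 24 pairs of libraries within groups were not copies (chi-square per degree of freedom 7.59 to 72.6 over 7405 genes). The simulated data on which the pipeline was tested were not used for any value.

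The members and the gene lists were chosen with earlier results of these data known. Named genes were *Fgfr4* and *Ndufa5*, then up to 12 higher and 12 lower called genes with the same sign on both diets, a mean of at least 1 CPM and no predicted name, by the smallest of the larger per-diet p. From each list every called member and up to 4 others in list order could be named. *Acads*, *Gm5641*, *Gm21897* and *Gm13910* were named after their values were seen. As alternatives, the average was refitted with DESeq2 1.42.0 on rounded counts and by quasi-likelihood in edgeR, and with other filters, scalings and thresholds, quality weights, an additive model, a replicate block and without each library; the removal of *Gm42418* and *Lars2*, and of 2 libraries together, was added after seeing the data.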

Additional observations from a re-analysis of the deposited data

Results flagged for a closer look

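In 4 of 144 groups of 4 libraries, over 36 genes, 1 library lay far from the other 3 by Dixon's criterion (gap to the nearest library over the range of the group), where chance gives about 5%. *Adi1* in Chow 3 was at 134.5 CPM against 108.8 to 112.6 CPM in the others (ratio 0.851), and *Fmo1* in Chow 3 was at 131.8 CPM against 113.8 to 115.9 CPM (ratio 0.884). *Lsr* in HFD/FGFR4 KD 2 was at 111.1 CPM against 128 to 130.1 CPM (ratio 0.891). *Cyp4a12b*, a male-biased fatty acid hydroxylase called higher on average with 0.10 on chow and 3.20 on HFD, was at 66.8 CPM in HFD/FGFR4 KD 1 against 25.6 to 25.8 CPM (ratio 0.996), and shares 62.9% of its transcript words, mostly with *Cyp4a12a*.

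The KD effect differed between the diets by a called interaction in limma-voom for 4 genes (0.0353%), the predicted gene *Gm21897* (2.42 higher on HFD, adjusted p = 0.0894), *Tm7sf2* (0.91 higher on HFD, adjusted p = 0.00254), *Cyp7a1* (3.01, adjusted p = 0.0764) and *Idi1* (1.33, adjusted p = 0.139).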

How the results depend on the processing

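The 55 calls on average became 215 with DESeq2 (96 higher; 33 of the 55 among them; 8125 genes had no adjusted p), 46 with edgeR, 9 with library totals alone, 35 with upper quartile factors, 13 in an additive model, 15 without both libraries that stood apart and 2 at an adjusted p under 0.05. Calls of higher genes, 41.8% of the total, were 55.6% with library totals, 15.4% in the additive model and 20% without Chow 3. Leaving out 1 library gave 5 to 83 calls: 5 without Chow 3, 17 without Chow 4, 21 and 28 without Chow/FGFR4 KD 3 and 4, 26, 35 and 28 without HFD 1, 3 and 4, and 33, 83, 24 and 22 without HFD/FGFR4 KD 1 to 4. *Fgfr4* and *Ndufa5* were called in all 26 alternatives that gave them an adjusted p. DESeq2 gave an adjusted p to 12 of the 24 named genes, and *Fgfr4* and *Ndufa5* were not among them.

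Calls with the same sign on both diets, 51, became 193 with DESeq2, 9 with library totals, 32 with upper quartiles and 12 without both libraries (4 to 69 without 1 library, moving by over 1.5 times without the libraries just named except HFD/FGFR4 KD 2). Calls whose diets differed at p under 0.05, 24, became 62, 15 with upper quartiles, 6 with library totals and 10 without both (4 to 44, moving as much without Chow 2, 3 or 4, Chow/FGFR4 KD 3, HFD 1, 3 or 4, or HFD/FGFR4 KD 2, 3 or 4). Called members of the lists without the cell type lists, 13, became 42, 2 with library totals and 6 without both (4 to 18, moving as much without Chow 2, 3 or 4, Chow/FGFR4 KD 3, HFD 1, or HFD/FGFR4 KD 3 or 4). Genes with p under 0.05 on both diets in the same direction, 43, became 83 without a filter, 21 with library totals, 28 without both and 5 at p under 0.01 (29 to 74, the highest without Chow 2 or Chow/FGFR4 KD 1), and in opposite directions, 22, became 11 with DESeq2, 53 without a filter and 11 without both (13 to 43, the highest without Chow 2, and 13 or 14 without HFD 1 or 3 or HFD/FGFR4 KD 1 or 4). Non-overlapping genes, 16, became 7 with library totals. The causes were not tested.

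The replicate block, on numbers that share only a name (1 of 8 pairs of libraries had a correlation over 0.1, from -0.29 to 0.24), gave 46 calls, 39 of them among the 55, and 14 genes in opposite directions. Of 636 values of named genes under the alternatives 379 kept their call, 257 lost it and 0 changed sign. Counts as low as 2 (*Nlgn2*) and 5 (*Dhrs9*) limit those genes.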
